A study of Mus musculus with 30 samples.

Results

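Complement is a set of plasma and tissue proteins that mark microbes and damaged cells for removal. In its classical pathway C1q, built from the chains of C1qa, C1qb and C1qc, binds a target and switches on the proteases C1r and C1s, which cut C4 and C2 and so lead to the cleavage of C3. Factor D, encoded by Cfd, is the protease that starts the amplifying alternative pathway, and C1 inhibitor, encoded by Serping1, blocks C1r and C1s. The liver makes most of the circulating proteins, while in other tissues macrophages are known as the main source of C1q, fibroblasts of C1r, C1s and C3, and adipocytes of factor D. The transcripts of these components and of the regulator were followed here in EDL (extensor digitorum longus), a fast hind limb muscle. The genes were taken by symbol, without regard to case, from a list of 9 names (C1QA, C1QB, C1QC, C1RA, C1S, C3, C4B, CFD and SERPING1). A row was found for 8 of the 9 among 21073 genes, and these are written below in mouse spelling as C1qa, C1qb, C1qc, C1ra, C3, C4b, Cfd and Serping1. No row carried the symbol C1s. Mice have the near copies C1s1 and C1s2 in its place, and C1s1 is described beside the 8 genes but outside their counts.

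Muscles came from 30 female wild-type SJL/J mice, each sampled once, in 6 groups of 5. Ctrl mice were not immunized, OVA mice received ovalbumin in complete Freund's adjuvant (CFA), and EAE mice received the myelin peptide [Ser140]-PLP in CFA, which induces experimental autoimmune encephalomyelitis, a model of multiple sclerosis. Each treatment was sampled on day 14, the peak of a mild disease that mostly affected 1 hind limb, and on day 40, during remission. OVA mice share the adjuvant with EAE mice, while Ctrl mice had neither antigen nor adjuvant. The age of the mice is not given in the sources used here. Levels are in RPKM, the reads on the exons of a gene scaled by exon length and by library size, so that levels can be compared between genes.

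The estimated depth was 18.2M to 31.6M reads per mouse, with a median of 21.7M, and the deepest library was EAE mouse 3 of day 14. Fast fibre markers were abundant in every group, as the label says, with group means of 5150 to 7262 RPKM for Myh4. Ctrl mice of day 14 varied in a list of 18 interferon-stimulated genes, with summed levels of 308 to 1211 RPKM. One Ctrl mouse of day 40 had a summed neutrophil marker level of 63.8 RPKM, against a group median of 6.58 RPKM. No mouse was left out. In a whole muscle, fewer cells of a type and less RNA per cell cannot be told apart.

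By position (GRCm38, the assembly of mm10), the 3 C1q genes stand side by side on chromosome 4, C1qb at 136880126 to 136886200, C1qc at 136889801 to 136892936 and C1qa at 136895916 to 136898844. C1ra lies on chromosome 6 at 124512621 to 124523440, and C1s1 next to it at 124530344 to 124542392. C3 (57203967 to 57228136) and C4b (34728139 to 34743902) are on chromosome 17, Cfd is on chromosome 10 (79890853 to 79892655) and Serping1 on chromosome 2 (84765360 to 84775444). The promoter windows below, from RefSeq (GRCm38.p6), hold 250 bases before and 50 after an annotated start, read 5′ to 3′ on the strand of the gene. Of the 8 genes, 5 had such a window. Those of C1qb and C1qc are shown because these neighbours moved together, and those of C1ra and C3 because the first fell against both control groups and the second against OVA alone. Capitals mark motif matches.
C1qb, chr4:136886151-136886450, minus strand: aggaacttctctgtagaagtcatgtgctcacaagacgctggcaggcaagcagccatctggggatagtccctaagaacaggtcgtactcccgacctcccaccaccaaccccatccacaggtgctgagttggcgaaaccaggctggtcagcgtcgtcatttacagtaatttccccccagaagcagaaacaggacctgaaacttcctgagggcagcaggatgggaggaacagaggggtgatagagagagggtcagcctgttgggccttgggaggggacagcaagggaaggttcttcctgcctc
C1qc, chr4:136892865-136893164, minus strand: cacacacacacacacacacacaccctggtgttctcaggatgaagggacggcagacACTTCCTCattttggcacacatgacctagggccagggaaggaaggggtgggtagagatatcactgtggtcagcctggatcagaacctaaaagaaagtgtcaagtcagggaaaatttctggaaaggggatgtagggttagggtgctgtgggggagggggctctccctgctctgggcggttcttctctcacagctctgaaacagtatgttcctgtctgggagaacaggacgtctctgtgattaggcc
C1ra, chr6:124512371-124512670, plus strand: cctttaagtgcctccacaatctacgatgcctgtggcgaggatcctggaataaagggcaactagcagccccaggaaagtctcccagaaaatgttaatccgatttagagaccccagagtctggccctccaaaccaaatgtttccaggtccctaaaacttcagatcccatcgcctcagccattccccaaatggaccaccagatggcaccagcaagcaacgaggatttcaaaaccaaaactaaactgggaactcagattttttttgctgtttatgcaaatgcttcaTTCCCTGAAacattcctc
C3, chr17:57228087-57228386, minus strand: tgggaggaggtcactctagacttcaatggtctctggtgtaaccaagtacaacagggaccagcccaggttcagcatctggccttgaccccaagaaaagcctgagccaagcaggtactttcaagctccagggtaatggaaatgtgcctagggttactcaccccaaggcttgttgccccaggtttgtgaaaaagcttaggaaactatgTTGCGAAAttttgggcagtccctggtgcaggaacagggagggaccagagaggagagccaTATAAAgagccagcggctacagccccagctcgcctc
Counted from the annotated start, with the first transcribed base as 1, C1qc held the PU.1 motif (GAGGAAGT, here on the opposite strand) at -195 to -188. C1ra held a GAS motif (TTCNNNGAA, a palindrome) at 33 to 41. C3 held a C/EBP motif (TTGCGNAA) at -45 to -38 and a TATAAA at 15 to 20. The same letters were found in 3.20%, 8.30%, 0.798% and 13.6% of 32851 promoter windows of that length. The ISRE (GAAA and GAAA with any 2 bases between them, in 3.44% of windows) and NF-kB motifs (GGGA and TTCC with any 2 bases between them, in 1.47%) matched in none of the 5 windows or in that of C1s1, with both strands searched. A match is a description of letters and not evidence of a bound factor.

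On day 14, the 3 C1q chains were 2.02- to 2.05-fold lower in EAE muscle than in muscle of Ctrl mice, and C1ra and Cfd were lower too. At an adjusted p (limma) below 0.05 and a fold change above 1.5, 5 of the 8 genes fell against Ctrl and none rose, where 11.8% of 8771 tested genes were called lower and 26.4% were called in either direction. Against OVA, 6 of 8 fell and none rose, where 9.28% of 8674 genes were called lower and 20.3% were called in all. The median log2 fold change of the 8 genes was -0.92 against Ctrl and -0.87 against OVA, while that of all tested genes was 0.11 in each. EAE vs. Ctrl and EAE vs. OVA share the EAE mice, so these counts are not independent. With median-of-ratios scaling the same numbers of the 8 genes fell, while over all genes the calls against Ctrl went from 1282 higher and 1036 lower to 985 higher and 1240 lower, and against OVA from 957 and 805 to 731 and 996.

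**Figure D1:**
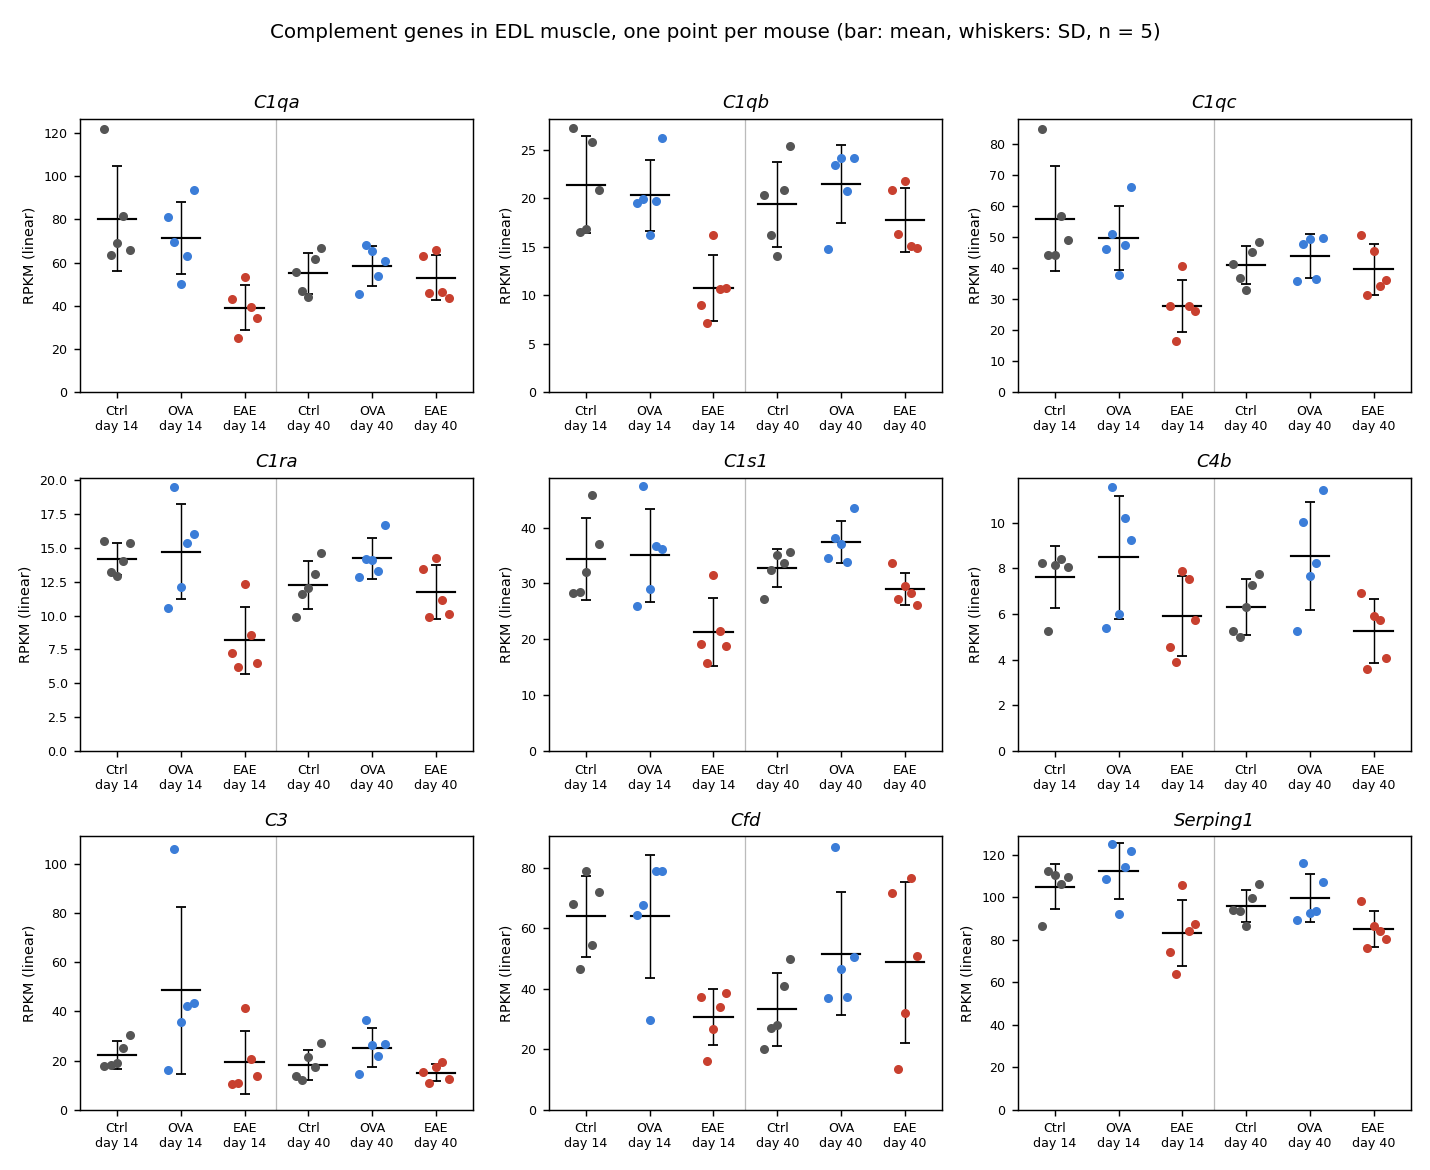
Level of each complement gene in RPKM on a linear axis from 0 (y) in the 6 groups (x), with 1 point per mouse, the mean as a bar and the SD as whiskers (n = 5). EAE mice of day 14 sit lowest for the C1q chains, with C1qa at 25.1 to 53.1 RPKM against 63.4 to 122 RPKM in Ctrl, and C3 has 1 OVA mouse at 106 RPKM.

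C1qa, the A chain of C1q, was present at 122, 63.4, 69.0, 81.5 and 65.7 RPKM in the 5 Ctrl mice, at 81.2, 69.6, 49.9, 62.9 and 93.3 RPKM in the OVA mice and at 43.0, 25.1, 53.1, 39.6 and 34.4 RPKM in the EAE mice of day 14. Every EAE mouse was below every Ctrl mouse, and only EAE mouse 3 reached into the range of OVA. The log2 fold change was -1.04 ± 0.22 (SE) against Ctrl, a level 2.05-fold lower with an adjusted p of 0.00129 by limma, and -0.88 ± 0.22 against OVA (adjusted p = 0.00493).

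C1qb was the least abundant chain, at 27.2, 16.5, 16.8, 25.7 and 20.8 RPKM in Ctrl, 19.5, 19.9, 16.2, 19.7 and 26.2 RPKM in OVA and 8.97, 7.11, 16.2, 10.6 and 10.7 RPKM in EAE mice of day 14. EAE mouse 3, the highest of its group, fell just below the lowest Ctrl mouse and just above the lowest OVA mouse. The level was 2.02-fold lower than in Ctrl (adjusted p = 0.000836, limma) and 1.93-fold lower than in OVA (adjusted p = 0.00168).

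C1qc, the C chain, stood at 84.6, 44.3, 44.1, 56.8 and 49.1 RPKM in Ctrl, 46.2, 50.9, 37.8, 47.4 and 66.2 RPKM in OVA and 27.9, 16.6, 40.5, 27.7 and 26.3 RPKM in EAE mice of day 14. Again EAE and Ctrl did not overlap and EAE mouse 3 alone reached the range of OVA. The level was 2.02-fold lower than in Ctrl (adjusted p = 0.00165, limma) and 1.82-fold lower than in OVA (adjusted p = 0.00591). Without EAE mouse 3 the log2 fold changes against Ctrl were -1.16 (C1qa), -1.17 (C1qb) and -1.16 (C1qc), all called.

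C1ra, which encodes the protease that C1q activates first, was at 15.5, 13.2, 12.9, 14.0 and 15.3 RPKM in Ctrl, 10.6, 19.5, 12.1, 15.3 and 16.0 RPKM in OVA and 7.24, 6.23, 12.3, 8.57 and 6.53 RPKM in EAE mice of day 14. The EAE mice were all below the Ctrl mice, and 4 of them were below all OVA mice. Its log2 fold change was -0.83 ± 0.18 against Ctrl (adjusted p = 0.00166, limma) and -0.85 ± 0.18 against OVA (adjusted p = 0.00177). A near copy, C1rb, reached a group mean of at most 2.29 RPKM, and reads of the pair may have been split between them, so the level of C1ra is uncertain to that extent.

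C1s1, the protease that C1r activates, was at 28.3 to 45.8 RPKM in Ctrl, 26.0 to 47.4 RPKM in OVA and 15.7 to 31.5 RPKM in EAE mice of day 14, with EAE mouse 3 the highest of its group. It fell 1.62-fold against Ctrl (adjusted p = 0.00821, limma) and 1.65-fold against OVA (adjusted p = 0.00851), although the ranges overlapped in both. C1s2 stayed under 3 RPKM in the mean of every group and was not tested.

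C4b, whose product C1s cuts, did not pass the test. Its levels were 8.24, 5.24, 8.15, 8.42 and 8.07 RPKM in Ctrl, 5.41, 11.6, 5.99, 10.2 and 9.23 RPKM in OVA and 4.57, 3.89, 7.87, 7.54 and 5.73 RPKM in EAE mice of day 14. The log2 fold change of EAE was -0.39 ± 0.23 against Ctrl (adjusted p = 0.175, limma) and -0.50 ± 0.23 against OVA (adjusted p = 0.0981). Its near copy C4a, annotated as a transcribed pseudogene, had group means of at most 0.508 RPKM, and shared reads make the level of C4b uncertain as well.

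C3, the protein on which the pathways converge, was at 17.9, 18.4, 18.9, 25.3 and 30.6 RPKM in Ctrl, 16.0, 106, 35.6, 42.3 and 43.3 RPKM in OVA and 10.6, 10.7, 41.2, 20.5 and 13.9 RPKM in EAE mice of day 14. OVA mouse 2 stood far above all others, 4 of the 5 OVA mice exceeded every Ctrl mouse, and EAE mice 3 and 4 lay within the range of OVA. The level in EAE was 2.41-fold lower than in OVA (log2 fold change -1.27 ± 0.42, adjusted p = 0.0249, limma). It did not pass the test against Ctrl (-0.37 ± 0.42, adjusted p = 0.484), nor did OVA against Ctrl (0.90 ± 0.42, adjusted p = 0.505). The call against OVA was lost when any 1 of 4 mice was left out (OVA mouse 2 or EAE mouse 1, 2 or 5), with adjusted p-values up to 0.0694, and without OVA mouse 2 the log2 fold change was -0.93.

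Cfd, which encodes factor D and is a known product of adipocytes, was at 67.9, 46.4, 79.1, 54.5 and 72.0 RPKM in Ctrl, 64.5, 67.5, 29.6, 78.8 and 79.1 RPKM in OVA and 37.2, 16.2, 26.8, 34.0 and 38.6 RPKM in EAE mice of day 14. All EAE mice were below all Ctrl mice, and OVA mouse 3 lay among the EAE mice. The level was 2.15-fold lower than in Ctrl (log2 fold change -1.10 ± 0.27, adjusted p = 0.00413, limma) and 2.06-fold lower than in OVA (adjusted p = 0.00712).

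Serping1, the inhibitor of C1r and C1s, was the most abundant of the 8 genes. It stood at 86.5, 112, 111, 106 and 109 RPKM in Ctrl, 109, 125, 92.1, 114 and 122 RPKM in OVA and 74.4, 64.1, 106, 84.0 and 87.4 RPKM in EAE mice of day 14. EAE mice 3 and 5 reached into the range of Ctrl, and mouse 3 into that of OVA. Its log2 fold change of -0.35 ± 0.13 against Ctrl and -0.45 ± 0.13 against OVA had adjusted p-values (limma) of 0.0383 and 0.0138, but the change was under the 1.5-fold threshold in each. The Serping1 to C1s1 ratio within a mouse was 3.97 ± 0.463 (SD, n = 5) in EAE mice, 3.14 ± 0.602 in Ctrl and 3.30 ± 0.565 in OVA mice of day 14, with overlapping ranges. Serping1 over C1ra was 10.5 ± 1.77 in EAE, 7.46 ± 1.21 in Ctrl and 7.88 ± 1.43 in OVA mice of day 14. Here EAE (8.58 to 13.4) did not overlap with Ctrl (5.58 to 8.54) but did with OVA (6.42 to 10.3). Neither ratio was tested.

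Between EAE and Ctrl on day 14 the levels of 5 of the 8 genes did not overlap, with EAE lower, where this held for 11.0% of tested genes. Between EAE and OVA none of the 8 was free of overlap (8.20% of tested genes). In OVA vs. Ctrl on day 14, 0 of the 8 genes were called by limma (0.142% of 8471 tested genes). An unadjusted p below 0.05 was found for 1 of the 8, C3, and for 821 of the 8471 tested genes. The log2 differences of OVA from Ctrl ranged from -0.16 (C1qa) to 0.90 (C3) with a median of -0.02.

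**Figure D2:**
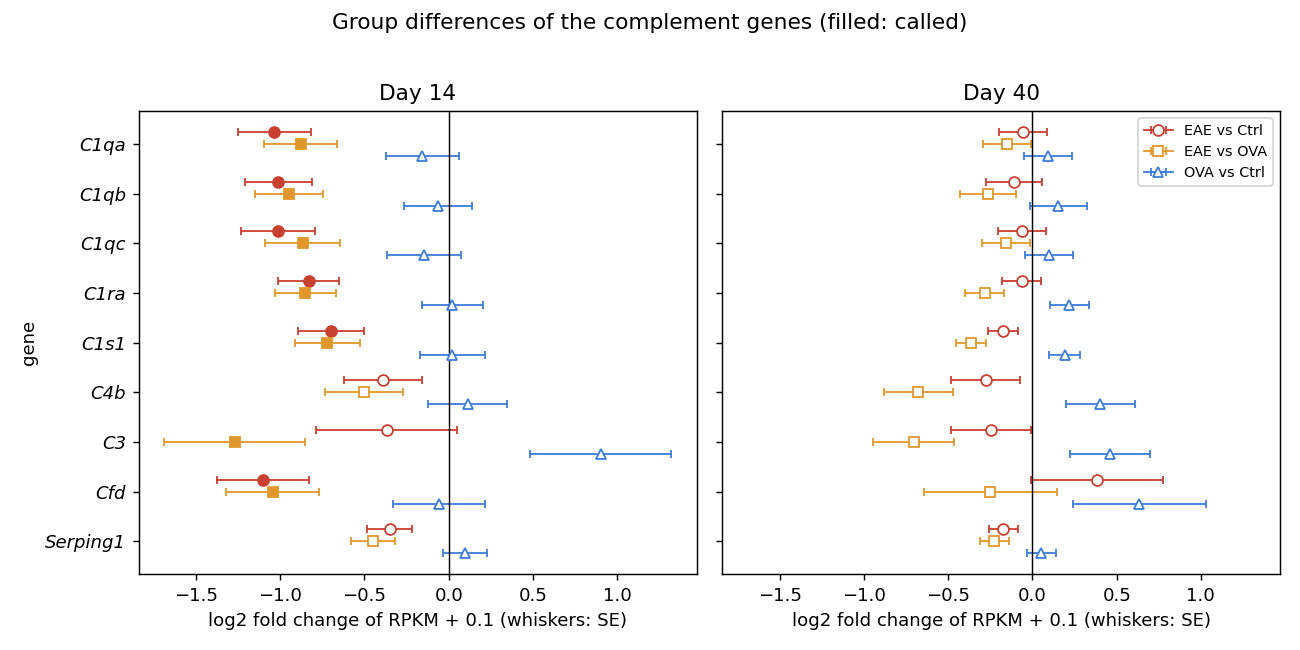
Log2 fold change of RPKM + 0.1 (x, with SE as whiskers) of each complement gene (y) for EAE against Ctrl, EAE against OVA and OVA against Ctrl, with day 14 on the left and day 40 on the right, with filled symbols for called genes. Filled symbols stand only on the left, between -0.70 and -1.27, and C3 on day 14 has the lowest value of EAE against OVA (-1.27) and the highest of OVA against Ctrl (0.90).

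On day 40 none of the 8 genes was called by limma in any of the 3 comparisons. In EAE vs. Ctrl 0 of 8 were called (0.460% of 8691 tested genes) and 0 had an unadjusted p below 0.05. In EAE vs. OVA 0 of 8 were called (0.209% of 8598 genes) and 4 had an unadjusted p below 0.05. In OVA vs. Ctrl 0 of 8 were called (0% of 8706 genes), with 0 at an unadjusted p below 0.05. Of all tested genes, 2423 of 8691, 1500 of 8598 and 272 of 8706 had an unadjusted p below 0.05 in these 3 comparisons. The median log2 fold changes of the 8 genes were -0.09, -0.26 and 0.19, against -0.05, -0.04 and -0.002 over all tested genes.

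The C1q chains of EAE mice lay within the range of the other day 40 groups or close to it. C1qa was at 55.7, 46.9, 44.0, 61.6 and 66.6 RPKM in Ctrl, 45.4, 68.1, 65.2, 53.5 and 60.6 RPKM in OVA and 63.0, 46.0, 65.6, 46.5 and 43.8 RPKM in EAE mice of day 40. C1qb was at 14.0 to 25.4, 14.7 to 24.2 and 14.9 to 21.8 RPKM in the same groups, and C1qc at 33.0 to 48.5, 35.9 to 49.7 and 31.2 to 50.6 RPKM. All groups overlapped. C1ra was at 9.89, 11.6, 12.0, 13.1 and 14.7 RPKM in Ctrl, 12.9, 14.2, 14.1, 13.3 and 16.7 RPKM in OVA and 13.4, 9.88, 14.2, 11.1 and 10.1 RPKM in EAE mice, again with overlap.

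The largest differences of day 40 that missed the threshold were those of C3 and C4b against OVA. C3 was at 13.7, 12.2, 21.4, 17.4 and 27.0 RPKM in Ctrl, 14.7, 36.7, 26.3, 21.8 and 26.8 RPKM in OVA and 15.5, 10.7, 17.3, 19.6 and 12.5 RPKM in EAE mice, a log2 fold change of -0.71 ± 0.24 against OVA (adjusted p = 0.16, limma). C4b ranged over 4.98 to 7.74 RPKM in Ctrl, 5.25 to 11.4 RPKM in OVA and 3.58 to 6.94 RPKM in EAE mice, a log2 fold change of -0.68 ± 0.20 against OVA (adjusted p = 0.127). C1s1 was lower in all 5 EAE mice (26.1 to 33.6 RPKM) than in any OVA mouse (33.8 to 43.4 RPKM), where 4.90% of tested genes had EAE below OVA without overlap. Its log2 fold change of -0.37 ± 0.0898 had an adjusted p of 0.0653 (limma). Cfd had the widest spread of the day, with an SD of 26.6 RPKM in EAE mice. It was at 20.1, 27.0, 28.1, 41.0 and 49.8 RPKM in Ctrl, 36.9, 86.7, 46.7, 37.3 and 50.6 RPKM in OVA and 71.5, 13.4, 31.8, 76.4 and 50.7 RPKM in EAE mice, and EAE held both the lowest and the second highest mouse of the day. Serping1 was at 86.5 to 106 RPKM in Ctrl, 89.2 to 116 RPKM in OVA and 76.1 to 98.3 RPKM in EAE mice.

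An interaction of day and treatment, fitted to all 30 mice, tested whether EAE stood differently to its controls on day 40 than on day 14. Against Ctrl it changed for 5 of 8 genes by limma, each toward a higher level of EAE relative to Ctrl on day 40 (called higher: 11.7% of 9013 tested genes, called in all: 32.7%). The interaction was 1.49 ± 0.51 on the log2 scale for Cfd (adjusted p = 0.0184), 0.98 ± 0.27 for C1qa (adjusted p = 0.00468) and 0.77 ± 0.22 for C1ra (adjusted p = 0.00641). C1qb (0.90) and C1qc (0.95) were also called, while C1s1 (0.52 ± 0.22, adjusted p = 0.0515), C3 (0.12), C4b (0.11) and Serping1 (0.18) were not. For Cfd the Ctrl mice had levels of 46.4 to 79.1 RPKM on day 14 and 20.1 to 49.8 RPKM on day 40. From day 14 to day 40 the mean of C1qa went from 80.3 to 55.0 RPKM in Ctrl and from 39.0 to 53.0 RPKM in EAE mice, so both groups moved. The mean of C1qb went from 21.4 to 19.3 RPKM in Ctrl and from 10.7 to 17.8 RPKM in EAE mice. The median over all genes was -0.15 in this comparison and -0.005 with median-of-ratios scaling, under which the same number of the 8 genes was called.

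Against OVA, 2 of 8 genes were called by limma in the same test (called higher: 8.16% of 8935 tested genes; called in all: 21.8%), C1qa (0.73 ± 0.27, adjusted p = 0.0384) and C1qc (0.71 ± 0.27, adjusted p = 0.045). C1qb (0.68, adjusted p = 0.0516) missed the threshold and C1ra (0.57, adjusted p = 0.048) was under 1.5-fold. This count rested on single mice, since it ranged from 0 to 4 when each was left out in turn. It was 0 without OVA mouse 5 or EAE mouse 2 or 5 of day 14, or without OVA mouse 1 or 4 or EAE mouse 1 or 3 of day 40. It was 1 without OVA mouse 1, 2 or 4 of day 14, and 4 without OVA mouse 3 or EAE mouse 3 of day 14 or OVA mouse 5 or EAE mouse 2 or 5 of day 40. In OVA vs. Ctrl the difference between days was called for 0 of 8 genes by limma (0% of 8848 tested genes). At an unadjusted p below 0.05 were 0 of the 8 and 823 of the 8848 tested genes.

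Ordered by the median of the 6 groups, EAE of day 14 was lowest for 7 of the 8 genes and for C1s1. The exception was Cfd, with its lowest median in Ctrl mice of day 40 (28.1 RPKM). The ratio of the highest to the lowest median ran from 1.36 (Serping1) to 3.05 (C3), where the highest was OVA of day 14 in both. C1qa, C1ra and C4b also had their highest median in OVA of day 14, C1qc and Cfd in Ctrl of day 14 and C1qb in OVA of day 40. The ranges of neighbouring groups in this order overlapped for every gene, so single steps of the order are not separated beyond the spread between mice.

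Within a mouse the C1q chains kept nearly the same ratio in all 3 groups of a day, but not on both days. C1qa over C1qb was 3.75 ± 0.584 (SD, n = 5) in Ctrl, 3.50 ± 0.417 in OVA and 3.71 ± 0.639 in EAE mice of day 14, and 2.87 ± 0.197, 2.76 ± 0.237 and 2.98 ± 0.102 in the same groups of day 40. C1qc over C1qb was 2.60 ± 0.349, 2.44 ± 0.0976 and 2.60 ± 0.301 on day 14 and 2.15 ± 0.177, 2.07 ± 0.244 and 2.22 ± 0.227 on day 40. Mean ratios were thus higher on day 14 also in mice without immunization, a difference between days that was not tested. The days were different mice, and age, day of sampling and any difference in preparation cannot be told apart. C1s1 over C1ra had group means of 2.39 to 2.69 over the 6 groups.

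**Figure D3:**
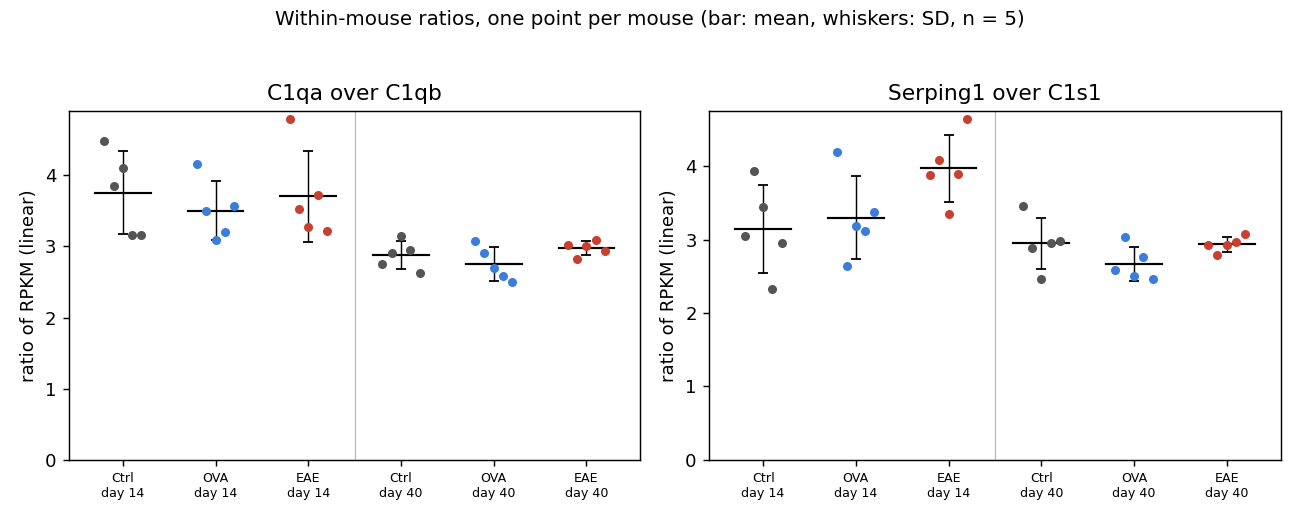
Ratio of RPKM (y, linear from 0) of C1qa to C1qb (left) and of Serping1 to C1s1 (right) within each mouse, in the 6 groups (x), with the mean as a bar and the SD as whiskers (n = 5). C1qa over C1qb lies at 3.09 to 4.79 in the mice of day 14 and at 2.51 to 3.14 in those of day 40, and Serping1 over C1s1 has its highest mean, 3.97, in EAE mice of day 14.

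The rest of the complement system was read from a list of 49 other genes, of which 14 were tested in EAE vs. Ctrl and 13 in EAE vs. OVA on day 14. Of these, 7 fell and none rose in each comparison, where 11.8% and 9.28% of all tested genes were called lower and 26.4% and 20.3% in either direction. Their median log2 fold changes were -0.62 and -0.65, beside 0.11 over all tested genes in each. Of the alternative pathway genes both fell. Cfb, which encodes the factor B that factor D cuts, was at 10.2 ± 1.41 RPKM (SD, n = 5) in Ctrl, 9.29 ± 2.88 RPKM in OVA and 5.37 ± 3.19 RPKM in EAE mice (-1.06 and -0.89 against Ctrl and OVA on the log2 scale). Cfp, which encodes properdin, the stabilizer of the alternative convertase, had differences of -0.90 and -0.68. Of 13 further genes of the classical and lectin pathways, C2 (the partner of C4 in the C3 convertase) fell against Ctrl (-0.85, adjusted p = 0.00126, limma) and was under 3 RPKM and not tested against OVA, and Fcna (ficolin A, a lectin) fell against both (-0.65 and -0.86).

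Among 9 fluid-phase regulators, Clu (clusterin, which blocks the terminal complex) went from 53.0 ± 5.98 RPKM in Ctrl and 48.8 ± 7.50 RPKM in OVA to 25.5 ± 10.8 RPKM in EAE mice, and fell against both (-1.15 and -1.02 on the log2 scale). Vtn (vitronectin, which binds the same complex) fell against Ctrl (-0.79, adjusted p = 0.000606, limma) and stayed under the fold threshold against OVA (-0.51). Of 9 membrane regulators, Cd55, which takes convertases apart, fell against OVA (-0.62) and was under the fold threshold against Ctrl (-0.53). Cr1l of the same class was higher in EAE (19.3 to 22.2 RPKM) than in Ctrl mice (14.9 to 18.1 RPKM). Its log2 fold change of 0.29 (adjusted p = 0.0114, limma) was under the fold threshold, and it was 0.08 against OVA. Cd59a, the most abundant of the class, was not called (-0.30 and -0.06). Of 9 receptor genes, Itgb2, the shared beta chain of the leukocyte integrins and of complement receptors 3 and 4, fell against both (-0.94 and -0.95), and Itgam, the alpha chain of receptor 3, against OVA (-0.79). C1qbp, the most abundant of this class, was not called (0.12 and 0.06). None of the 7 terminal pathway genes reached a group mean of 3 RPKM. On day 40, 0 of the 13 other genes tested were called by limma in each of the 3 comparisons, with 2, 0 and 0 at an unadjusted p below 0.05 when EAE was set against Ctrl, EAE against OVA and OVA against Ctrl. Of all tested genes, 2423 of 8691, 1500 of 8598 and 272 of 8706 were below it.

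**Figure D4:**
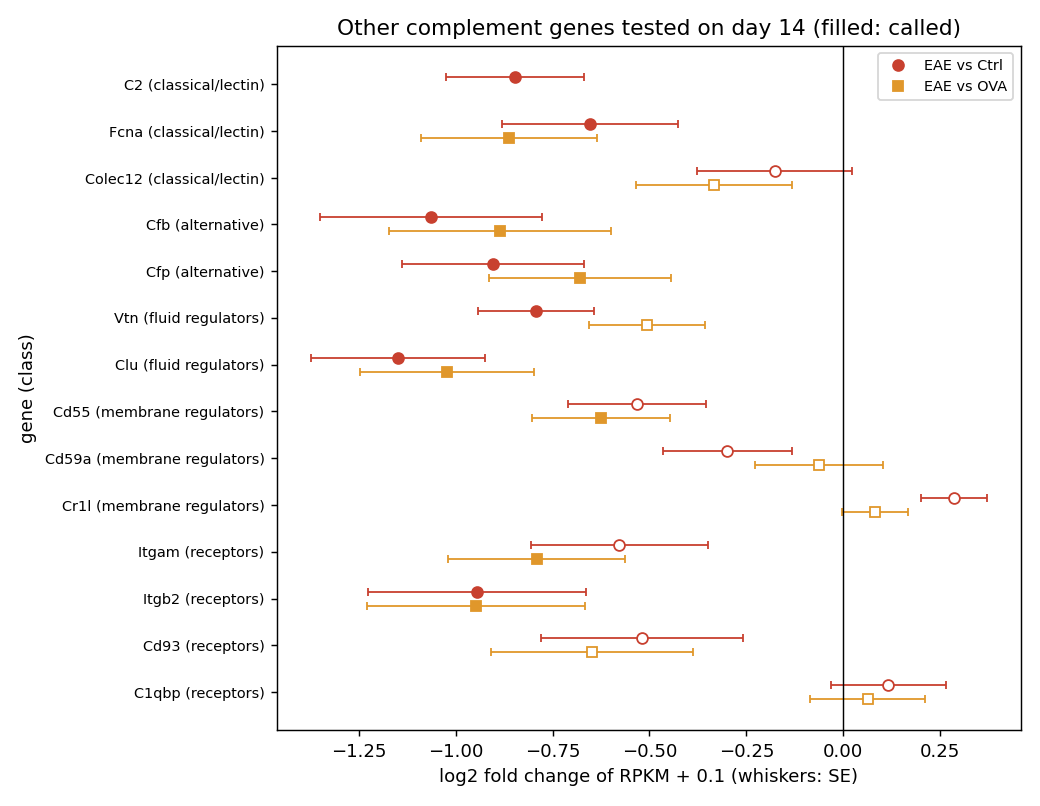
Log2 fold change of RPKM + 0.1 (x, with SE as whiskers) of the 14 other complement genes tested on day 14 (y, with their class) for EAE vs. Ctrl and EAE vs. OVA, with filled symbols for called genes. All filled symbols stand left of 0, the lowest being Clu at -1.15 against Ctrl.

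Markers of cell types known to make these proteins were lower in the median in EAE mice of day 14, most for fibroblasts and with few calls for adipocytes. Of all tested genes, 11.8% were called lower against Ctrl and 9.28% against OVA. Of 12 macrophage markers 8 were tested, and 3 fell against Ctrl and 4 against OVA, with median log2 fold changes of -0.48 and -0.54. Their summed level was 214 to 344 RPKM in Ctrl, 219.6 to 317 RPKM in OVA and 114 to 253 RPKM in EAE mice, and the defining markers Adgre1, Csf1r and Cd68 had means of 2.64, 10.1 and 16.6 RPKM in EAE, 4.97, 17.1 and 19.5 RPKM in Ctrl and 4.50, 16.6 and 16.2 RPKM in OVA mice, so that the mean of Cd68 in EAE was below that of Ctrl but not that of OVA. Set against this sum, the 3 C1q chains together were at 0.643 ± 0.252 (SD, n = 5) in Ctrl, 0.506 ± 0.0470 in OVA and 0.465 ± 0.0349 in EAE mice of day 14. The ratio of EAE thus overlapped with both controls. The defining markers made up a small part of the macrophage sum, so the ratio is not a measure of C1q per macrophage.

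Fibroblast markers fell in 8 of 10 genes against Ctrl and 7 of 10 against OVA (median log2 fold changes -0.93 and -0.74). Not every marker was lower, the highest log2 fold change being 0.18 against Ctrl and 0.01 against OVA. The defining markers Pdgfra, Dcn and Lum had means of 6.74, 278 and 20.4 RPKM in EAE and 7.64, 447 and 33.4 RPKM in Ctrl. In OVA mice they were at 7.96, 407 and 32.3 RPKM, so Pdgfra differed least. The summed level of the list, 340 to 526 RPKM in EAE mice, did not overlap with 739 to 887 RPKM in Ctrl or 577 to 793 RPKM in OVA. C1ra per unit of this sum was 0.0186 ± 0.00308 (SD, n = 5) in EAE, 0.0176 ± 0.00193 in Ctrl and 0.0218 ± 0.00625 in OVA mice of day 14, with overlapping ranges. Serping1 per unit of it was 0.191 ± 0.0165 in EAE, 0.130 ± 0.0158 in Ctrl and 0.165 ± 0.0225 in OVA mice, where EAE overlapped with OVA and not with Ctrl. The means of C3, C4b and C1s1 per unit of it (0.0426, 0.0135 and 0.0485) were above those of Ctrl too (0.0277, 0.0095 and 0.0429), with overlapping ranges. In OVA mice these means were 0.0738, 0.0125 and 0.0518. Dcn made up much of the fibroblast sum, so ratios to it are not levels per fibroblast. Of 10 adipocyte markers 6 were tested, and 0 fell against Ctrl by limma (median -0.36) and 1 against OVA. Cfd per unit of the adipocyte sum was 0.0774 ± 0.0185 in EAE, 0.122 ± 0.0319 in Ctrl and 0.109 ± 0.0351 in OVA mice of day 14, and 0.0715 ± 0.0181 in Ctrl mice of day 40. That sum was 412 to 635 RPKM in Ctrl mice of day 14, where the defining markers Adipoq, Plin1 and Cidec had means of 8.42, 3.36 and 4.69 RPKM. Most of it thus came from other genes of the list, and the ratio is not a measure of Cfd per adipocyte. No defining marker of these 3 lists was at 0 in the mean of any group.

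All 15 tested interferon-stimulated genes fell against Ctrl and 8 of 10 against OVA (median log2 fold changes -1.92 and -1.05). Their sums were 149 to 269 RPKM in EAE mice, 281 to 428 RPKM in OVA mice and 308 to 1211 RPKM in Ctrl mice. All 15 were also lower in OVA than in Ctrl mice (median -0.82), with 1 of them called. The difference from Ctrl is thus larger than that from OVA. The 4 tested neutrophil markers rose against Ctrl in EAE (median 3.89) and in OVA mice (4.77) of day 14. Between EAE and OVA they were split, with 1 called higher and 3 lower but not called. S100a8 had means of 225 RPKM in EAE and 46.5 RPKM in OVA mice, and S100a9 of 36.1 and 71.9 RPKM. Endothelial markers fell in 3 of 10 genes in EAE vs. Ctrl and in EAE vs. OVA, where 11.8% and 9.28% of all tested genes were called lower. The part of these markers in the complement values was not tested.

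Across the 30 mice, the genes whose log2 levels were most like each of the 8 genes were searched among 9049 genes, with the 8 genes themselves left out. These correlations are descriptions over mice that share groups and days. For C1qa they were Coro1a (Pearson r = 0.949), Cotl1 and Cyba, for C1qb Pld4 (0.949), Ctsb and Cxcl16, and for C1qc Cotl1 (0.949), Ly6e and Fcer1g, several of which are known from phagocytes. Within the 8 genes, C1qa and C1qc had a higher r with each other (0.967) than with any of these, and so had C3 and C4b (0.809) than with those named for them below. For C1ra the first was another complement gene, Cfb (0.937), before Il10rb and Laptm5. For Cfd they were the adipocyte genes Cidec (0.854), Retn and Adipoq, with r of 0.898 to 0.933 for the deviations from the 6 group means. The likeness was weaker for Serping1 (Trf, 0.839, Clec4a1 and Cavin1), C3 (Vwf, 0.807, Rin3 and Cd300lg) and C4b (Cbfa2t3, 0.801, Trf and Tmem176a). Ranked by the deviations from the 6 group means, most of the named genes were replaced for 6 of the 8 genes, all but Cfd and Serping1. The first-named gene stayed first for C1qa, C1qb, C1qc and C1ra, while for C3 and C4b all were replaced.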

How the data were processed

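EDL muscle RNA of 30 mice was sequenced by the authors from poly(A) libraries (NEBNext Ultra II Directional), aligned to mm10 with Subread, assigned to RefSeq genes with featureCounts and expressed as RPKM. The table of 21073 genes that the authors deposited holds log2 values, made by taking the log2 of RPKM plus 1. This was read from the numbers: they were taken as log2(RPKM + 1), since among 1740 genes with few reads 96.4% of values were whole multiples of 1 read (within 0.1 read) on that scale and 76.2% as plain RPKM. They were converted back, and 0.0001 (25.8% of values) stands for no read.

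Groups were compared with limma 3.58.1 (R 4.3.3; trend, log2(RPKM + 0.1), two-sided), fitted to all 15 mice of each day, and to all 30 for the interaction of day and group. Genes above a mean of 3 RPKM in at least 1 compared group were tested, and called when their p, adjusted by Benjamini-Hochberg over all tested genes, was below 0.05 and the fold change exceeded 1.5. The authors' edgeR needs counts, which were not used here. The model was tested on made data with known answers. Reads per mouse were estimated from the value of 1 read and exon lengths, and no counting interval is given. In the 60 pairs of mice within groups, the mean squared difference in estimated reads was 9.21 to 217 times that of sampling noise, and each mouse counts as 1 replicate.

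The members and gene lists were chosen with earlier results of these data known. One gene of the lists is not reported here and stays out of their counts. Named besides the 8 genes and C1s1 were other complement genes called in at least 1 of the 6 comparisons (at most 3 per class and comparison), the 3 genes most like each member and the first 3 markers of a list. Cr1l, Cd59a and C1qbp were named although they were not called. The alternatives were another pseudocount (1), other filters, 2 scalings, limma without trend, no fold threshold, the replicate number as a block, other sets of mice in the model, and leaving out each mouse.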

Additional observations from a re-analysis of the deposited data

Results flagged for a closer look

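In 60 sets of 1 gene and 1 group, a mouse was compared with the others of its group by its gap to the nearest (Dixon's test at its 95% critical value), which chance exceeds in about 1 in 20 sets. It was exceeded by 3 sets: the lowest Ctrl mouse of day 14 for C4b (mouse 2, 5.24 RPKM), the highest OVA mouse of day 40 for Cfd (mouse 2, 86.7 RPKM) and the lowest Ctrl mouse of day 14 for Serping1 (mouse 1, 86.5 RPKM).

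The difference between EAE and Ctrl changed from day 14 to day 40 (interaction in limma, adjusted p below 0.05 and fold above 1.5) for Cfd (1.49), C1qa (0.98), C1qc (0.95), C1qb (0.90) and C1ra (0.77), all on the log2 scale. Among the other complement genes it also changed for C2 (1.10), Vtn (1.04), Cfb (0.98), Clu (0.97) and Cfp (0.90). Each of these values is positive, so EAE lay higher relative to Ctrl on day 40 than on day 14.

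The difference between EAE and OVA changed in the same way for Clu (0.96), C1qa (0.73), C1qc (0.71) and Vtn (0.63).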

How the results depend on the processing

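The number of the 8 genes called kept within 1.5 times its value under every alternative run in 8 of the 9 comparisons, interactions included; the leave-one-out counts were 5 in each EAE vs. Ctrl fit of day 14 and 5 to 7 in EAE vs. OVA. The exception was the change of EAE vs. OVA between days, with 2 genes called: 0 with no filter, 4 with median-of-ratios scaling, 4 with quantile normalization, and 0 to 4 without single mice, while no fold threshold gave 3. With no fold threshold Serping1 joined the calls of day 14 (6 and 7 genes). Over all genes, median-of-ratios scaling took the calls of day 40 from 40 to 22 in EAE vs. Ctrl and from 18 to 2 in EAE vs. OVA, and the interactions from 1059 higher and 1888 lower to 1481 and 1257 (EAE vs. Ctrl) and from 729 and 1222 to 1002 and 771 (EAE vs. OVA). The replicate numbers did not pair the mice (in 0 to 3 of 5 pairs same-numbered mice had a correlation over 0.1), and the replicate block left the counts at 5, 6, 0, 0, 0, 0, 5, 2 and 0.

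Some differences near 0 that were not called changed sign when 1 mouse was left out. The log2 ranges for OVA vs. Ctrl of day 14 were -0.26 to 0.0042 (C1qa), -0.16 to 0.030 (C1qb), -0.25 to 0.016 (C1qc), -0.088 to 0.13 (C1ra), -0.015 to 0.26 (C4b), -0.17 to 0.20 (Cfd) and -0.094 to 0.13 (C1s1). Those of EAE vs. Ctrl of day 40 were -0.14 to 0.017 (C1qa), -0.16 to 0.018 (C1qc) and -0.14 to 0.0030 (C1ra). Cfd in EAE vs. OVA of day 40 ranged from -0.47 to 0.15, Serping1 in OVA vs. Ctrl of day 40 from -0.0044 to 0.090, and the interactions of C3 (-0.043 to 0.45) and C4b (-0.023 to 0.24) in EAE vs. Ctrl and Serping1 in OVA vs. Ctrl (-0.12 to 0.022). The cause was not tested. The 5 mice per group limit the precision more than depth does: the lowest estimate for any of the 8 genes was 154 reads (C1qb).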
